A study of Mus musculus with 8 samples.

Results

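The 10 genes described here encode the replacement histone variants and replacement linker histones of the mouse, chosen by name from the gene table of RNA-Seq on gastrocnemius (GST) muscle. All 10 were among the 15433 genes listed. They are H2afx, H2afy, H2afy2, H2afz, H2afv and H2afj for variants of histone H2A, H3f3a and H3f3b for histone H3.3, and H1f0 and H1fx for linker histones. RNA came from 4 STIM1+/D84G mice and 4 WT mice, all female and 6 months old, with 1 library per mouse. STIM1+/D84G mice carry 1 Stim1 allele with an Asp-to-Gly change in the EF hand of STIM1, the calcium sensor of the sarcoplasmic reticulum, in every cell of the animal. The labels call these libraries Sax, which was taken as the STIM1+/D84G genotype from the title of the series. The WT controls were C57BL/6 mice matched for age and sex. The mutation is a base change, so the level of Stim1 RNA does not check the genotype labels; Stim1 averaged 5413 ± 264 normalized counts in STIM1+/D84G muscle and 7293 ± 167 in WT muscle (SD, n = 4 each).

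DNA is wound around octamers of the core histones H2A, H2B, H3 and H4, and a linker histone of the H1 family binds where it enters and leaves. Most histone genes are transcribed when DNA is copied, and their mRNAs end in a stem-loop. The genes below are the exception, because they are transcribed outside S phase as polyadenylated mRNAs and supply histones to cells that no longer divide, such as muscle fibers; H2afx makes both kinds of mRNA. H2A.X is phosphorylated beside DNA breaks, H2A.Z sits at promoters and enhancers, macroH2A carries a large additional domain and is found on silent and on some active chromatin, H3.3 is laid down in transcribed genes and at repeats, and H1.0 accumulates in differentiated cells.

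H3f3b and H3f3a encode the same protein from different genes, and their transcripts did not move together. H3f3b lies on chromosome 11 from 116021912 to 116027962, and H3f3a lies on chromosome 1 from 180800832 to 180813943, both on the minus strand of mm10. The start of both coding sequences is shown to make clear how reads can tell the genes apart. The first 150 coding bases differ at 32 positions, in capitals below, and 29 of these are at the third base of a codon.
H3f3b: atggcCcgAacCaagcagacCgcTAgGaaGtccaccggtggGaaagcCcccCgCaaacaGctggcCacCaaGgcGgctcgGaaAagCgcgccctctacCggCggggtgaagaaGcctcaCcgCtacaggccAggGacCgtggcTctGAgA
H3f3a: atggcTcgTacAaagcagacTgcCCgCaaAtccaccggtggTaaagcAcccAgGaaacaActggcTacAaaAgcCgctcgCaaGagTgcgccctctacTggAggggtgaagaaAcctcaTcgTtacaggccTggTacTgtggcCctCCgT
Over the 408 coding bases 76.7% were identical, while the translated proteins were identical at 136 of 136 residues.

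The promoters of the pair are shown next, because the balance between these transcripts differed between the genotypes. Each runs from 250 bases before to 50 bases after the RefSeq start site (GRCm38.p6), and capitals mark CCAAT and TATAAA, searched on both strands, so that a CCAAT on the other strand reads ATTGG. The H3f3b promoter is chr11:116024455-116024754 and the H3f3a promoter chr1:180813556-180813855, both printed along the minus strand.
H3f3b: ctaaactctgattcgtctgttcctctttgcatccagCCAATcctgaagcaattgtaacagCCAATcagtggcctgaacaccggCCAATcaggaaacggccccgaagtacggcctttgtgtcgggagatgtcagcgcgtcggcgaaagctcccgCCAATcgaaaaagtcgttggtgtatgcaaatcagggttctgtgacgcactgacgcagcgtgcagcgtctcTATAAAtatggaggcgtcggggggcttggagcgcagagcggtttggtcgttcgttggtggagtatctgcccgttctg
H3f3a: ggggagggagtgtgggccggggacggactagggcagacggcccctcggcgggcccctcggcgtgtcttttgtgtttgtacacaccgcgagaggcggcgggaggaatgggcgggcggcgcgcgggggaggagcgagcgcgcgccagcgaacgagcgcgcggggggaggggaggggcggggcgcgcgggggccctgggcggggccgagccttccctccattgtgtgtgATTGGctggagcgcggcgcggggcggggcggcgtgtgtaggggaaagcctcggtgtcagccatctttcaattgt
The H3f3b promoter held 4 CCAAT and 1 TATAAA and no GC box (GGGCGG), at 55.0% G plus C. The H3f3a promoter held 1 CCAAT, no TATAAA and 6 GC boxes, at 74.0% G plus C. Among 32817 RefSeq promoters of the same length, 37.4% held at least 1 CCAAT and 1.06% held 4 or more, 13.6% held TATAAA and 35.6% held a GC box. Both 4 or more CCAAT and a TATAAA occurred in 32 of them (0.0975%). Of the 10 genes, 9 had a promoter in the table, all but H2afx. CCAAT occurred 4 times in H2afv, 3 times in H2afj and H2afz, 1 time in H2afy2, and had no match in H2afy, H1f0 and H1fx, so several CCAAT were found in genes that rose (H3f3b, H2afj) and in 1 that fell under the authors' scaling (H2afv). TGACGTCA was in none of the 9 windows and AAACACA in 1, that of H3f3a, against 1.79% and 7.19% of all promoters. These matches describe letters and not sites of binding.

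Values are normalized counts, the reads of a gene divided by 1 size factor per library, and are not scaled by gene length. A gene passed the test at an adjusted p under 0.05 (limma on log2 of the value plus 0.1, Benjamini-Hochberg over all 15433 genes), and its fold change is on that log2 scale. Of the 10 genes, 7 passed, 3 of them higher in STIM1+/D84G muscle and 4 lower, where 49.4% of all genes passed, 25.0% higher and 24.4% lower. The groups did not overlap for 7 of the 10, against 46.0% of all genes. The median log2 fold change of the 10 genes was 0.01, and that of all genes was also 0.01. No test was made of the set as a whole, and what follows is about single genes. The column names of the libraries carry a number of unstated meaning that divides them into 3 (1 STIM1+/D84G and 2 WT) and 5 (3 and 2). All 7 genes that passed had the same direction within both, and values within each are given where they differ most.

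**Figure D1:**
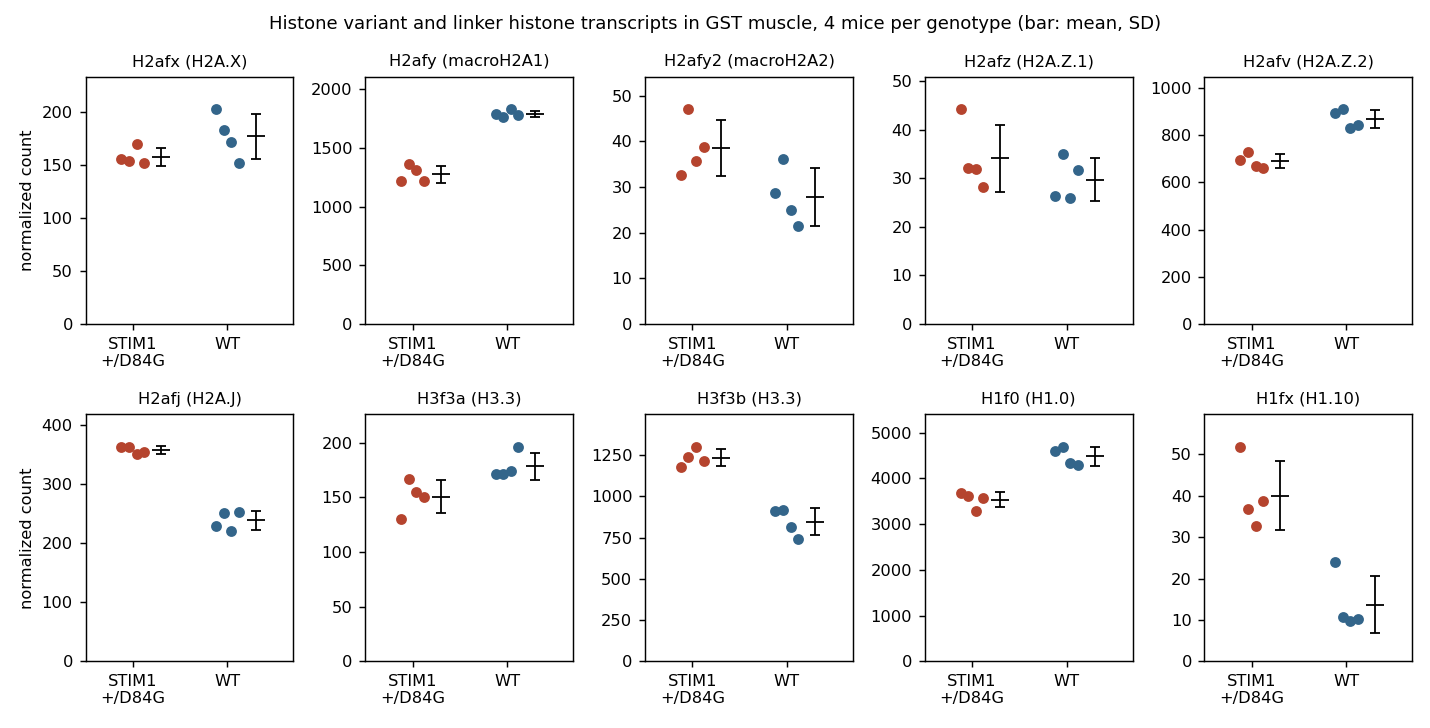
Normalized counts of the 10 genes in each library, STIM1+/D84G on the left and WT on the right of each panel, with 1 point per mouse and the mean and SD (n = 4) beside the points; each vertical axis starts at 0 and has its own scale. The groups are apart for 7 genes and overlap for H2afx, H2afy2 and H2afz.

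Among the H2A variants, transcripts of macroH2A1 fell and those of H2A.J rose, and those of H2A.Z.2 fell under the authors' scaling but not when libraries were divided by their totals. H2afy (chromosome 13, 56073619 to 56136361, minus strand) encodes macroH2A1 and had 1214, 1363, 1310 and 1216 normalized counts in the STIM1+/D84G libraries, against 1791, 1766, 1828 and 1779 in the WT libraries. The WT values lay within a narrow band, and the highest STIM1+/D84G library stayed below all of them. The means were 1276 ± 73.5 and 1791 ± 26.9 (SD, n = 4 each), a log2 fold change of -0.49 (SE 0.05, adjusted p = 9.88e-06, limma). From start to end, introns included, H2afy overlaps the antisense gene Gm47071, which is not among the genes listed, by 11231 bases.

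H2afv (chromosome 11, 6427229 to 6444443, minus strand) encodes H2A.Z.2 and had 695.6, 727.9, 671.0 and 661.7 normalized counts in STIM1+/D84G muscle, against 893.0, 908.8, 829.5 and 841.2 in WT muscle. Every STIM1+/D84G library was below every WT library. The means were 689 ± 29.6 and 868 ± 38.7 (SD, n = 4 each), and the log2 fold change was -0.33 (SE 0.05, adjusted p = 2.72e-04, limma).

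H2afj (chromosome 6, 136808244 to 136810074, plus strand) encodes H2A.J, a variant that in human fibroblasts accumulates in senescence with lasting DNA damage. It had 363.1, 363.5, 350.9 and 355.1 normalized counts in STIM1+/D84G muscle, against 229.8, 250.7, 221.2 and 253.8 in WT muscle. The STIM1+/D84G libraries were close to each other and all above the WT libraries, with means of 358 ± 6.22 and 239 ± 15.9 (SD, n = 4 each). The log2 fold change was 0.59 (SE 0.06, adjusted p = 2.64e-05, limma).

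The other H2A variants did not pass. H2afx (chromosome 9, 44334694 to 44336077, plus strand, 1 exon) had 155.6, 153.6, 169.7 and 151.5 normalized counts in STIM1+/D84G muscle, against 202.4, 183.2, 171.3 and 151.5 in WT muscle. The lowest WT library was level with the lowest STIM1+/D84G library, and the log2 fold change was -0.16 (95% interval -0.37 to 0.05, adjusted p = 0.192, limma). The measurement is of H2A.X mRNA and says nothing of the phosphorylated protein. How far H2afx mRNA that ends in a stem-loop entered the libraries is not given in the sources used here.

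H2afy2 (chromosome 10, 61738665 to 61784147, minus strand), which encodes macroH2A2, had 32.7, 47.0, 35.7 and 38.8 normalized counts in STIM1+/D84G muscle, against 28.6, 36.2, 24.9 and 21.5 in WT muscle. WT replicate 2 overlapped the STIM1+/D84G libraries. The log2 fold change was 0.48 (95% interval 0.03 to 0.93, adjusted p = 0.0707, limma), and without WT replicate 2 it was 0.62 (adjusted p = 0.0291). Its values within the numbers of the column names differed, with a log2 ratio of 0.01 in the first (1 STIM1+/D84G and 2 WT libraries) and 0.80 in the second (3 and 2 libraries). From start to end, introns included, the gene overlaps Aifm2 on the opposite strand by 596 bases. Aifm2 averaged 440.3 normalized counts in STIM1+/D84G muscle and 434 in WT muscle (adjusted p = 0.836, limma). Whether reads were counted by strand is not given in the sources used here, so reads in such an overlap are uncertain.

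H2afz (chromosome 3, 137864487 to 137866922, plus strand) encodes H2A.Z.1 and had 44.2, 32.1, 31.8 and 28.2 normalized counts in STIM1+/D84G muscle, against 26.3, 35.0, 26.0 and 31.7 in WT muscle. STIM1+/D84G replicate 1 was the highest of the 8 libraries and the others overlapped. The log2 fold change was 0.19 (95% interval -0.24 to 0.61, adjusted p = 0.457, limma).

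The H3.3 genes moved in opposite directions under the authors' scaling, with H3f3a close to the threshold and above 0 when libraries were divided by their totals. H3f3b had 1178, 1239, 1300 and 1215 normalized counts in STIM1+/D84G muscle, against 910.1, 918.4, 813.2 and 744.0 in WT muscle. The lowest STIM1+/D84G library was above the highest WT library, with means of 1233 ± 51.5 and 846 ± 83.4 (SD, n = 4 each). The log2 fold change was 0.55 (SE 0.07, adjusted p = 6.99e-05, limma), with log2 ratios of 0.37 and 0.68 within the first and second number.

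H3f3a had 130.7, 166.9, 155.2 and 150.7 normalized counts in STIM1+/D84G muscle, against 171.5, 171.1, 174.6 and 196.5 in WT muscle. STIM1+/D84G replicate 2 was just below the lowest WT library, so the groups came close without overlapping. The log2 fold change was -0.25 (SE 0.09, adjusted p = 0.0481, limma), near the threshold. The adjusted p was 0.0566 with the replicate number as a block, and leaving out 1 library at a time gave 0.0331 without STIM1+/D84G replicate 2 and 0.0601 to 0.125 without any other. An antisense gene listed as Gm16067 overlaps H3f3a by 168 bases and averaged 45.1 normalized counts in STIM1+/D84G muscle and 55.9 in WT muscle (adjusted p = 0.185, limma). From start to end, introns included, H3f3a also overlaps the lincRNA gene Gm17275 on the opposite strand by 6916 bases. Gm17275 is not among the genes listed. Reads in both overlaps are uncertain, since counting by strand is not given.

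Because both genes make the same protein, their counts were also added. The sum of H3f3b and H3f3a was 1384 ± 62.4 normalized counts in STIM1+/D84G muscle and 1025 ± 72.8 in WT muscle (SD, n = 4 each), a ratio of 1.35. The sum ranged over 1308 to 1456 in STIM1+/D84G libraries and over 940.5 to 1089.5 in WT libraries. It followed H3f3b, the gene with most of the reads.

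H1fx rose, while H1f0 fell under the authors' scaling and was near 0 when libraries were divided by their totals. H1f0 (chromosome 15, 79028450 to 79030504, plus strand, 1 exon) encodes H1.0 and had 3680, 3616, 3290 and 3562 normalized counts in STIM1+/D84G muscle, against 4604, 4693, 4330 and 4290 in WT muscle. No STIM1+/D84G library reached the lowest WT library, and the means were 3537 ± 171 and 4479 ± 200 (SD, n = 4 each). The log2 fold change was -0.34 (SE 0.05, adjusted p = 1.44e-04, limma). The antisense gene Gm49544, which is not among the genes listed, overlaps H1f0 by 163 bases.

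H1fx (chromosome 6, 87980421 to 87981637, minus strand, 1 exon) encodes H1.10, a linker histone that is divergent from the rest of the family. It had 51.9, 36.8, 32.8 and 38.8 normalized counts in STIM1+/D84G muscle, against 24.0, 10.8, 9.76 and 10.2 in WT muscle. Replicate 1 was the highest of its group in both genotypes, and the groups did not overlap. The means were 40.1 ± 8.26 and 13.7 ± 6.88 (SD, n = 4 each), 2.92-fold higher in STIM1+/D84G muscle, and the log2 fold change of 1.63 (SE 0.30, adjusted p = 0.00111, limma) was the largest of the 10. It rested on few reads, down to 9 in a WT library, and without WT replicate 1 the log2 fold change was 1.93. The antisense gene Gm5577, which is not among the genes listed, overlaps H1fx by 755 bases. Reads in that overlap are uncertain, since counting by strand is not given.

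**Figure D2:**
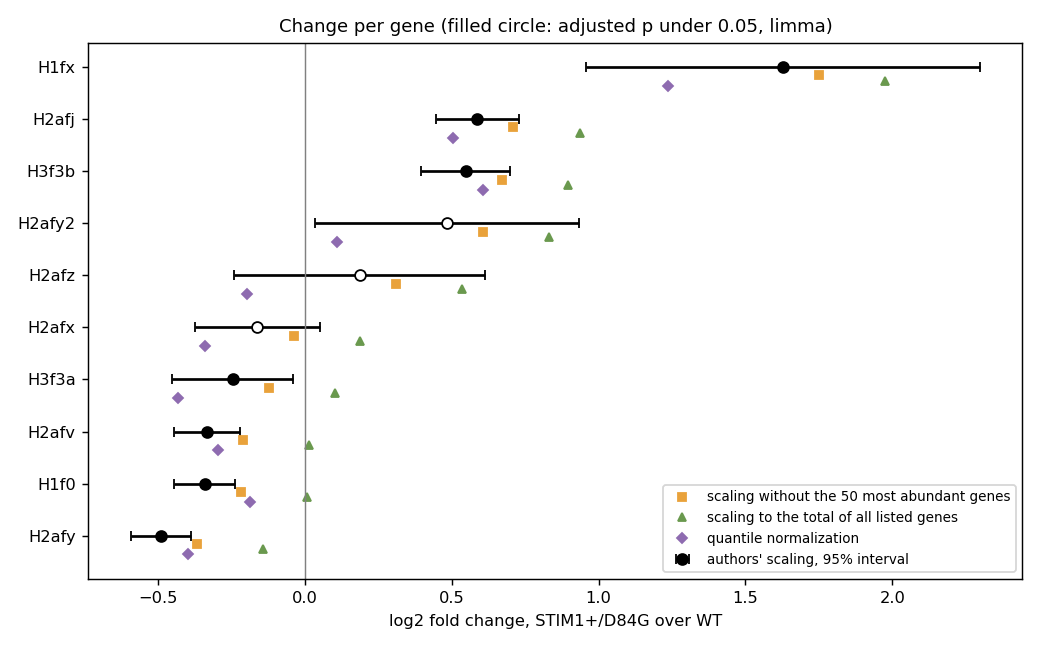
Log2 fold change of each gene, STIM1+/D84G over WT, with its 95% interval under the authors' scaling (circles, filled where the adjusted p was under 0.05) and the value under 3 other scalings (squares, triangles and diamonds). H1fx, H2afj and H3f3b are above 0 and H2afy below 0 under each of the 4 scalings, while H2afv, H1f0, H3f3a and H2afx lie above 0 under scaling to the total (triangles).

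The direction of the smaller changes depended on how the libraries were scaled. Dividing by the total of all listed genes moved the median of all genes by 0.35 on the log2 scale, and then 9479 genes were higher and 761 lower, against 3859 higher and 3765 lower under the authors' scaling. Under that total the log2 fold changes were 0.016 for H2afv, 0.0080 for H1f0, 0.10 for H3f3a and 0.19 for H2afx, while H2afy stayed lower at -0.14 and H3f3b, H2afj and H1fx stayed higher. Relative to the median of all genes, H2afv was at -0.35 and H1f0 at -0.35 on the log2 scale. The 15 myofiber markers, which take a large share of the reads, summed to between 5906474 and 6721790 normalized counts in STIM1+/D84G libraries and between 10248093 and 10938573 in WT libraries, and their part in these shifts was not tested.

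The balance within pairs of related genes does not depend on the scaling, since both genes are read in the same library. H3f3b made up 89.1% ± 0.784 of the reads of H3f3b plus H3f3a in STIM1+/D84G muscle and 82.5% ± 2.41 in WT muscle (SD, n = 4 each). The STIM1+/D84G libraries held 90.0%, 88.1%, 89.3% and 89.0%, against 84.1%, 84.3%, 82.3% and 79.1% in the WT libraries. The share was 6.65 percentage points higher, with no overlap, and the 95% Wilson interval of a single library was at most 5.25 points wide.

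For H2A.Z the share of the minor gene was higher in STIM1+/D84G muscle. H2afz took 4.70% ± 0.867 of the reads of H2afz plus H2afv in STIM1+/D84G muscle and 3.31% ± 0.422 in WT muscle (SD, n = 4 each). The libraries held 5.97%, 4.23%, 4.53% and 4.09% in STIM1+/D84G muscle, against 2.86%, 3.70%, 3.04% and 3.63% in WT muscle. The difference of 1.39 points was no wider than the interval of a single library (up to 3.37 points), and it was 0.97 points without STIM1+/D84G replicate 1. The sum of both H2A.Z genes was 723 ± 32.4 normalized counts in STIM1+/D84G muscle and 898 ± 40.7 in WT muscle. Unlike the share, this sum depends on the scaling. Most of it is H2afv, whose log2 fold change was 0.016 when libraries were divided by their totals.

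For macroH2A and the linker histones the share of the major gene was lower. H2afy held 97.1% ± 0.348 of the reads of H2afy plus H2afy2 in STIM1+/D84G muscle and 98.5% ± 0.354 in WT muscle (SD, n = 4 each), a difference of -1.39 points. That difference was no wider than the interval of a single library (up to 1.81 points). The share rested on 21 to 60 H2afy2 reads per library, and reads in the overlap with Aifm2 are uncertain. Among linker histones H1f0 held 98.9% ± 0.187 of the reads of H1f0 plus H1fx in STIM1+/D84G muscle and 99.7% ± 0.144 in WT muscle, a difference of -0.81 points. For every 1000 H1f0 reads there were 14.1, 10.2, 9.96 and 10.9 H1fx reads in STIM1+/D84G libraries, against 5.21, 2.31, 2.25 and 2.39 in WT libraries.

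The groups did not overlap for any of the 4 shares. A two-sided exact permutation test over the 70 assignments of 4 libraries against 4 gave p = 0.0286 for each, the smallest value this design allows, and 0.0286 after adjustment over the 4 pairs. Paired by replicate number the exact test gave p = 0.125 for each, the smallest that 4 pairs allow. For H2afz the exact p was 0.0571 without WT replicate 1 or without WT replicate 3. All 4 differences kept their sign within both numbers of the column names, at 2.69 and 0.942 points for H2afz, and 5.80 and 8.10 points for H3f3b. Intervals cover counting error only.

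**Figure D3:**
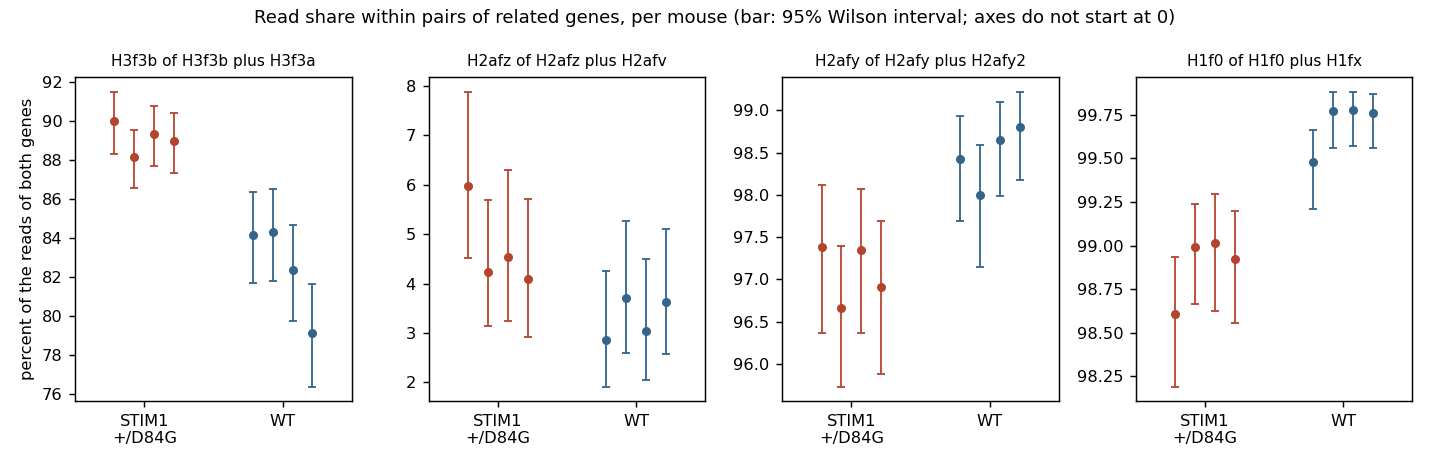
Share of reads of the first gene within each of 4 pairs of related genes, 1 point per mouse with its 95% Wilson interval, STIM1+/D84G left and WT right; the vertical axes are in percent and do not start at 0. The STIM1+/D84G libraries lie above all WT libraries for H3f3b and H2afz and below them for H2afy and H1f0.

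Levels of different genes can be set beside each other only per length, here as normalized counts per kilobase of annotated exon (GENCODE M21, all exons of a gene merged, so genes with long rare exons are understated). H1f0 was the highest of the 10 by this level, at 1721 ± 83.4 in STIM1+/D84G muscle and 2180 ± 97.2 in WT muscle (SD, n = 4 each). In STIM1+/D84G muscle the level of H2afv (422 ± 18.1) was next and overlapped that of H3f3b (414 ± 17.3), whereas in WT muscle H2afv (532 ± 23.7) stood above H3f3b (284 ± 28.0) without overlap. H2afj (196 ± 3.40) and H2afy (187 ± 10.8) overlapped in STIM1+/D84G muscle, while H2afy (263 ± 3.95) was above H2afj (130.5 ± 8.67) in each WT library. The merged lengths of H2afy and H3f3b were 6809 and 2976 bases. Their transcripts with the longest coding sequence have 2046 and 2514 bases. The places of H2afy and H3f3b among the 10 genes therefore depend on the length used.

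At the low end, H1fx was per kilobase above H2afz and H2afy2 in STIM1+/D84G muscle, at 32.9 ± 6.79 against 19.2 ± 3.93 and 17.7 ± 2.84. The merged length of H2afz was 1776 bases, while its transcript with the longest coding sequence has 1069. The distance of H2afz from H1fx therefore depends on the length used. In WT muscle H2afz, H2afy2 and H1fx followed each other at 16.8 ± 2.45, 12.8 ± 2.89 and 11.3 ± 5.65, and each overlapped its neighbour. H2afx (114 ± 5.94 in STIM1+/D84G, 128 ± 15.4 in WT) and H3f3a (43.1 ± 4.31 and 50.9 ± 3.46) lay between.

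**Figure D4:**
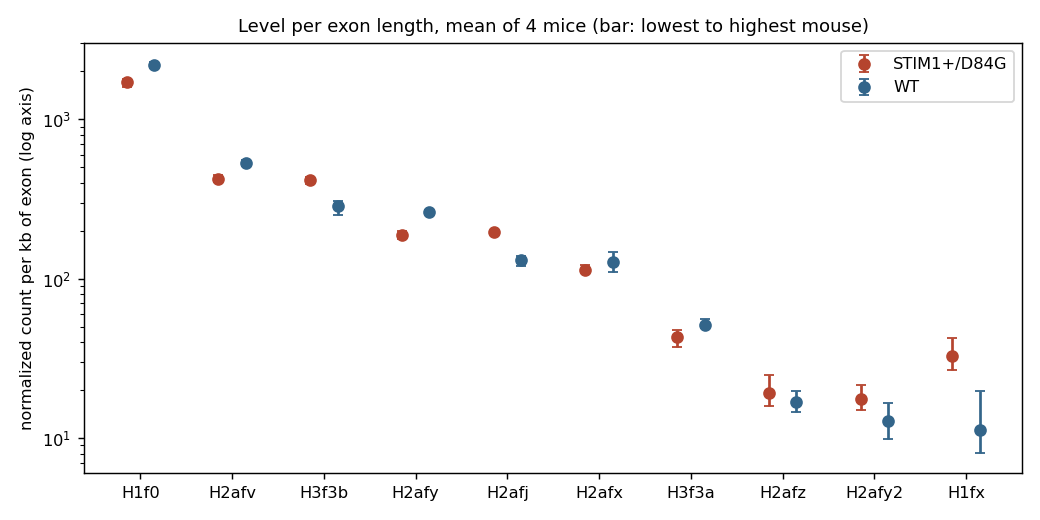
Normalized counts per kilobase of exon on a log axis for the 10 genes in the order of their WT level, as the mean of 4 mice with a bar from the lowest to the highest mouse, STIM1+/D84G left of WT for each gene. H1f0 is highest in both genotypes. With merged exon lengths H1fx lies above H2afz and H2afy2 in STIM1+/D84G muscle, and its distance from H2afz depends on the length used.

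Some of these transcripts share stretches with other genes, which bears on how reads of 50 bases are counted. Every one of the 50-base words in the H2afz coding sequence (100%) and 92.8% of those in H3f3a also occurred in transcripts of other genes, 38 of 42 of them pseudogenes for H3f3a and 4 of 6 for H2afz. Over the whole transcript the share was 69.6% for H2afz and 30.3% for H3f3a. For H3f3b it was 46.0% of coding words and 8.40% of the whole transcript. For H1f0 it was 0% of coding words and 5.68% of the whole transcript, and H2afv had none. The paper describes paired reads, and a word stands for 1 read of a pair only. How reads that match several genes were treated is not given in the sources used here, so the levels of H2afz and H3f3a, and the shares that use them, are less certain than those of H3f3b, H2afv and H1f0.

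**Figure D5:**
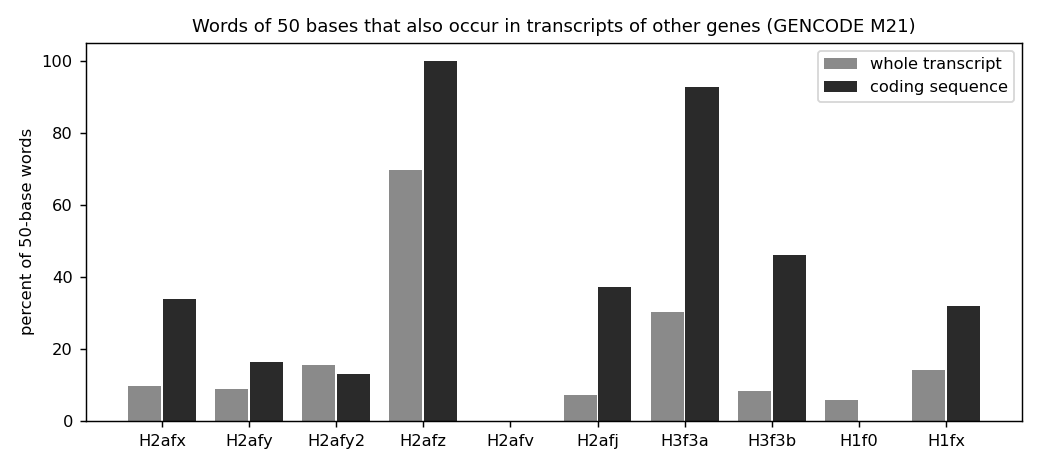
Percent of the 50-base words of each gene that also occur in transcripts of other genes, for the whole transcript (grey) and the coding sequence (black). H2afz and H3f3a have the largest coding shares, at 100% and 92.8%, and H2afv has none.

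The chaperones and remodelers that place and remove these variants were read from a list of 36 genes, 35 of them in the table (Srcap was not listed there). Of these, 7 were higher and 13 lower (57.1% passed, against 49.4% of all genes), with a median log2 fold change of -0.08, and their summed level was between 32182 and 33007 normalized counts in STIM1+/D84G libraries and between 34742 and 36418 in WT libraries. Of the 10 loaders of H2A.Z, subunits of the SRCAP and TIP60-p400 complexes, 1 was higher and 5 were lower. Vps72, the H2A.Z-binding subunit of both, averaged 798 ± 36.8 normalized counts in STIM1+/D84G muscle and 1103 ± 93.9 in WT muscle (SD, n = 4 each), a log2 fold change of -0.46 (adjusted p = 1.41e-04, limma). Both listed genes for removal of H2A.Z, Anp32e and Ino80, were lower. Over all genes 25.0% were higher and 24.4% lower, and no result about loading or removal of H2A.Z is read from these counts. When libraries were divided by their totals, 24 of the 35 genes were higher and 0 lower, where 61.4% of all genes were higher and 4.93% lower.

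Of the 5 genes listed for the HIRA and ASF1a route of H3.3 deposition, 2 were higher and 3 lower. Of the 2 genes for the DAXX and ATRX route, 1 was higher and 0 lower. Over all genes 25.0% were higher and 24.4% lower, and no result about either route is read from these counts. Cabin1, a subunit of the HIRA complex, averaged 780.3 ± 53.7 normalized counts in STIM1+/D84G muscle and 592 ± 26.2 in WT muscle (log2 fold change 0.40, adjusted p = 2.27e-04, limma). Parp1, which binds nucleosomes and modifies chromatin proteins, averaged 2190.4 ± 71.8 in STIM1+/D84G muscle and 2853 ± 77.5 in WT muscle (log2 fold change -0.38). Tspyl2, of the nucleosome assembly protein family, averaged 780.0 ± 36.6 in STIM1+/D84G muscle and 585 ± 22.5 in WT muscle (log2 fold change 0.41).

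The 24 genes listed for H2A.X phosphorylation were all in the table. They write, read or erase this phosphorylation or act in the repair and checkpoint steps that follow it. Of these genes, 1 was higher and 9 were lower (41.7% passed, against 49.4% of all genes), with a median log2 fold change of -0.01. Divided by library totals, 14 were higher and 1 was lower, where 61.4% of all genes were higher. No result about the list as a whole is read from these counts. Eya1, a phosphatase for the terminal tyrosine of H2A.X and a transcriptional cofactor in muscle, averaged 484 ± 64.3 normalized counts in STIM1+/D84G muscle and 847 ± 93.2 in WT muscle (log2 fold change -0.81, adjusted p = 9.02e-05, limma). The ubiquitin ligase gene Rnf8 (log2 fold change -0.42) and Mre11a of the MRN complex (-0.38) were lower. Trp53bp1, whose protein is a reader at breaks, was higher at 0.24 on the log2 scale (adjusted p = 0.0164) with groups that overlapped.

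Genes of histones made in S phase were measured for comparison. The paper describes libraries enriched for mRNA, and how far mRNAs that end in a stem-loop entered them is not given. The counts may therefore leave out part of the mRNA of these genes. Of 18 genes with a Hist1h, Hist2h, Hist3h or Hist4h symbol, 14 did not pass, 3 passed as higher and 1 as lower (22.2% passed, against 49.4% of all genes), with a median log2 fold change of 0.16. Hist3h2a averaged 81.4 ± 6.25 normalized counts in STIM1+/D84G muscle and 127 ± 18.3 in WT muscle (log2 fold change -0.63, adjusted p = 0.00119, limma). Hist1h4h (0.60) and Hist1h4i (0.46) were higher, and Hist4h4 also passed but had at most 10 reads in a library and no read in WT replicates 1 and 2. The H1 gene Hist1h1c, chosen for its level after the values were seen, averaged 3588 ± 145 in STIM1+/D84G muscle and 3827 ± 309 in WT muscle (adjusted p = 0.222). Of 10 genes for processing these mRNAs, none was higher and Sympk (-0.30 on the log2 scale), Npat (-0.21) and Cpsf2 (-0.14) were lower, while 8 were higher and 0 lower when divided by library totals. By those totals 9 of the 18 S-phase histone genes were higher and 0 lower, where 61.4% of all genes were higher, and quantile normalization gave 1 higher and 3 lower. Of 19 genes for other variants, partly the same S-phase genes, 7 were in the table, with 3 higher and 1 lower, against 6 higher and 0 lower by library totals and 0 higher and 1 lower with quantile normalization. Cenpa among them, the variant of centromeres, averaged 54.2 ± 4.95 in STIM1+/D84G muscle and 39.1 ± 4.62 in WT muscle (log2 fold change 0.47, adjusted p = 0.0188, limma).

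Markers of macrophages and fibro-adipogenic progenitors were higher in STIM1+/D84G muscle, and most myofiber markers were lower under the authors' scaling. Macrophage markers were higher for 16 of 16 genes (median log2 fold change 1.79), with summed levels of 8438 to 14320.4 normalized counts in STIM1+/D84G libraries and 3035 to 3733 in WT libraries. Markers of fibro-adipogenic progenitors were higher for 10 of 12 and lower for 1, and summed to between 87061 and 112084 in STIM1+/D84G libraries and between 57050.4 and 65153 in WT libraries. Of the 12 lymphocyte markers 6 were in the table and 3 were higher (summed levels of 44.3 to 76.7 in STIM1+/D84G libraries and 14.3 to 43.4 in WT libraries), as were 4 of 7 satellite cell markers and 1 of 8 Schwann cell markers, and 2 of 10 endothelial markers were lower. Over all genes 25.0% were higher and 24.4% lower. Of Schwann cell markers 12.5% passed and of endothelial markers 20.0%, against 49.4% of all genes. No change of these cell types is read from the counts. Of the proliferation genes, 13 of 24 were higher and 2 lower, and they summed to between 2380.2 and 2733 in STIM1+/D84G libraries and between 1996 and 2533 in WT libraries, ranges that overlap; with quantile normalization 6 were higher. No listed marker was at 0 in all libraries of a genotype. Of 15 myofiber markers 12 were lower and 2 higher, but 4 were lower and 3 higher with quantile normalization, and all 15 were detected in both genotypes. In whole muscle, fewer cells of a type and less RNA per cell cannot be told apart, and the part of these cell types in the changes of the histone genes was not tested.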

How the data were processed

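RNA-Seq of GST muscle from 4 STIM1+/D84G and 4 WT mice was read from 1 table. Its signal values were deposited by the authors as reads of a gene over a size factor that differs by library (genome build mm10, per the labels); 1 read was worth 0.783 to 0.964 in STIM1+/D84G and 1.02 to 1.21 in WT libraries, and all values were whole reads within 0.01. Although RPKM stands in the name of the table, gene length does not enter the values. Its ratio (fold), log2, score (standard error and statistic) and p-value columns hold the authors' own comparison, as deposited, and were not used. The aligner and counter are not given in the sources used here, and the labels and methods name different library kits. Reads in listed genes were between 27481177 and 35018732 per STIM1+/D84G library and between 28698738 and 33661535 per WT library, so the lowest levels rest on few reads.

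Genes were tested with limma 3.58.1 (R 4.3.3, trend) on log2 of the value plus 0.1, two-sided, over 15433 genes; a minimum mean of 0.5 removed 0 genes. The procedure was tested on simulated counts in which a small part of the genes changed, equally in both directions. The simulation took the size factors as known, so it does not test the choice of scaling. The 4 read shares had exact permutation tests. Alternatives were edgeR 4.0.16 and DESeq2 1.42.0 on the recovered reads, other pseudocounts, filters and scalings, the number in the column names as a term, and leaving out each library. Libraries with the same replicate number in their titles deviated together (correlations 0.213, 0.161, 0.150 and 0.123 for the 4 numbers, all over 0.1), so the fit with the number as a block is given where it changes a call of the 10 genes or a count of a list; the labels do not say what a number shares. Coordinates and words came from GENCODE M21, with 15289 genes matched, and promoters from RefSeq. The 10 genes and the lists were chosen with earlier results of these data known. Besides these 10, up to 4 genes per list with the largest change past the threshold, Stim1 and listed genes that overlap a member were named. Anp32e, Ino80 and Hist1h1c are named besides. So are Gm5577, Gm17275, Gm47071 and Gm49544, which overlap a member but are not among the genes listed. Tables and figures used Python 3.11.15, pandas 2.3.3, numpy 2.4.6, scipy 1.17.1, Biopython 1.88 and matplotlib 3.10.9.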

Additional observations from a re-analysis of the deposited data

Results flagged for a closer look

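In 3 of the 28 groups of 4 values examined, 1 library was far from the others, by its gap to the nearest of them over the whole range of the group; chance flags about 1 in 20 groups. For H3f3a, WT replicate 4 had 196.5 normalized counts while the other WT libraries lay between 171.1 and 174.6, a gap of 0.865 of the range. For H1fx, WT replicate 1 had 24.0 normalized counts while the others lay between 9.76 and 10.8 (0.924). For the share of H1f0 reads among H1f0 plus H1fx, WT replicate 1 had 99.5% while the others lay between 99.76% and 99.78% (0.955), which uses the same H1fx reads.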

How the results depend on the processing

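H2afy (log2 fold change -0.52 to -0.14), H2afj (0.51 to 0.94), H3f3b (0.49 to 0.90) and H1fx (1.235 to 1.97) kept their direction and passed under all 21 alternatives to the test of each gene. Among these, median-of-ratios scaling equals the authors' scaling, and leaving out the filter on low values brought in no gene. Both repeat the main values and add no check. Dividing by the sum over all listed genes gave 5 genes higher and 1 lower, with log2 fold changes of 0.19 for H2afx, 0.016 for H2afv, 0.10 for H3f3a and 0.0080 for H1f0, which turn the direction, and 0.53 for H2afz and 0.83 for H2afy2, which then passed. Quantile normalization gave -0.20 for H2afz and -0.34 for H2afx (adjusted p = 0.00935, limma), and 3112 genes higher and 4154 lower over all genes. Scaling without the 50 most abundant genes gave 0.61 for H2afy2 (adjusted p = 0.0287) and -0.12 for H3f3a (0.278), with 5318 genes higher and 2245 lower. These scalings shifted the median of all genes by 0.35, -0.08 and 0.12. Dividing by a sum of reads by construction moves each gene with the median. Quantile normalization instead moved genes by different amounts, H1f0 from -0.34 to -0.19 and H2afz from 0.19 to -0.20. The cause of other shifts was not tested.

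H3f3a did not pass with TMM scaling (-0.23, adjusted p = 0.0557), edgeR (-0.23, 0.0555), DESeq2 (-0.24, 0.109) or the replicate block (-0.25, 0.0566), and ranged from -0.30 to -0.18 when 1 library was left out; H2afy2 ranged from 0.37 to 0.62. Among the 10 genes the block changed no other call. In the lists it gave 6 higher and 12 lower for deposition, 12 and 1 for proliferation, 2 and 13 for myofiber, 2 and 0 for lymphocyte, 4 and 2 for satellite cell and 2 and 0 for Schwann cell markers, and the same counts for the others. With the pairs of the block the shares kept 6.65, 1.39, -1.39 and -0.81 points at p = 0.125 (exact). The H2afz share ranged from 0.97 to 1.60 points with 1 library left out and was 2.69 within the first number of the column names; the H2afy share was -0.83 within the first and -1.75 within the second, and the H1f0 share -1.02 within the first. All 7 genes that passed had the same direction within both numbers. Depth limits H1fx, H2afz and H2afy2 most.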
